A study of Mus musculus with 2 samples.

Results

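The immunoglobulin kappa variable (Igkv) genes encode the variable part of the kappa light chain of the B cell receptor. They were taken here as all genes of the count table whose symbol starts with Igkv and whose Ensembl biotype is IG_V_gene. The annotation holds 100 such genes, and 98 of the 38788 genes in the table were among them (Igkv1-35 and Igkv8-34 were not in it). They were described in the 600 cells that the study annotated as B cells, out of 978 cells with a cell type and 1055 cells in the table. The cells were single nucleated cells sorted from the peripheral blood of 11 male wild-type C57BL/6J mice, and each mouse filled its own 96-well plate. The animal and its plate therefore cannot be told apart. Mice 12 and 24 were 10 weeks old, mice 11, 14 and 15 were 36 weeks old, mice 21, 22 and 23 were 77 weeks old, and mice 1, 2 and 3 formed the oldest group, at 99.1 to 101.1 weeks. No other treatment or genotype set the groups apart.

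A kappa chain is made by joining 1 of the many Igkv genes to 1 of a few short Igkj segments, which are then spliced to the single constant gene Igkc. Each B cell has a kappa locus on both copies of the chromosome. Most B cells make light chain from a single rearrangement, which is called allelic exclusion, and a B cell whose receptor binds self can rearrange again, joining an Igkv gene farther upstream to an Igkj segment farther downstream (receptor editing). When both copies give RNA, or when kappa fails and lambda is used instead, a cell shows more than one light chain transcript. Here the gene with the highest Igkv count in a cell is called its first gene.

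B cells per mouse numbered 29 to 78, with 157049 to 1222914 total counts a cell and a median of 328495.5. The markers fitted the annotation: at least 10 counts of Cd79a were present in 98.8% of B cells and in 1.82% of T cells, and of Cd3d in 0.833% of B cells against 95.4% of T cells. Sequencing lane followed age in part, since the 3 oldest mice were all in lane 2, and values from lane 2 alone are given beside the age comparisons where they differ in direction or call. Mouse 14 was split over the lanes, with 15 B cells in lane 1 and 39 in lane 2, so lane 2 values hold only a part of it.

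The 98 genes lie at chr6:67555497-70704177 (GRCm38), from 18.4 to 3166 kb upstream of Igkj1 (chr6:70722562-70722599, plus strand), and fall into 20 subgroups, the number after Igkv in the symbol. Of them, 38 have the orientation of the Igkj segments and join by deletion of the DNA between, and 60 have the opposite orientation and join by inversion. The end of each gene carries the conserved cysteine and the start of the third complementarity-determining region (CDR3), the part of the chain that varies most between cells. The last 90 coding bases of the 5 genes used by most B cells are shown 5′ to 3′, with capitals from the last in-frame cysteine codon to the end of the germline gene, because this stretch is what each contributes to the CDR3.
Igkv10-96, chr6:68631963-68632052, minus strand: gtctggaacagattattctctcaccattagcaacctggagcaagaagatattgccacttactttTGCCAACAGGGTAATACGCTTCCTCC
Igkv1-117, chr6:68121738-68121827, plus strand: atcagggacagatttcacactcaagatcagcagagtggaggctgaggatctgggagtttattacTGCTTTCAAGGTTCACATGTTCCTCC
Igkv12-44, chr6:69814631-69814720, minus strand: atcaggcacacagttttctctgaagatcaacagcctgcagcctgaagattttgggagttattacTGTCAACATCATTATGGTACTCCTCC
Igkv1-135, chr6:67610419-67610508, plus strand: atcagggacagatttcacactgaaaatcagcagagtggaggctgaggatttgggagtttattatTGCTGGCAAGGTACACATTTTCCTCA
Igkv19-93, chr6:68736297-68736386, minus strand: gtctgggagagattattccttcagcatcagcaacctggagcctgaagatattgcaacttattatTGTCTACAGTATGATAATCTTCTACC

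Igkv RNA was present in nearly every B cell and in almost no other cell. At least 10 Igkv counts were found in 583 of 600 B cells (97.2%), against 1 of 329 T cells (0.304%, exact binomial 95% interval 0.0077 to 1.68%) and 0 of 49 other cells. The T cells were not shallower, with a median total of 420021 counts. Such intervals cover counting error only. The 583 cells held 20 to 42479 Igkv counts, with a median of 2440 counts, and the median in CPM, counts scaled to one common total per cell, was 7400. The highest value, 94415 CPM, belonged to a single cell of mouse 1, of the oldest group, and the next highest cell was at 25515 CPM.

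The 17 B cells with fewer than 10 Igkv counts came from 10 of the 11 mice, and 16 of them had none. All 17 had lambda variable counts, from 1274 to 9760, and lambda constant counts, from 1338 to 13975. In 14 of them Igkc was at 0 or 1 count, and in the other 3 it was between 542 and 1300. These cells therefore carried lambda RNA and no Igkv gene at 10 counts, although some held Igkc RNA.

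Usage was spread over the locus. Of the 98 genes, 80 were the first gene of at least 1 B cell, 45 of at least 5 cells and 11 of a single cell, while 18 were never first. Of those 18, 14 reached 10 counts in some cell and 7 were the second gene of a cell. The 19 most used genes were enough to cover 50% of the 583 cells, and the 12 most used genes covered 216 cells (37.0%).

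Igkv10-96 was the most used gene and the only one first in cells of all 11 mice, with 35 cells. It was first in 13.8% and 1.96% of cells in the 2 mice aged 10 weeks, in 3.45%, 5.77% and 6.78% at 36 weeks, in 4.88%, 3.92% and 7.55% at 77 weeks, and in 8.96%, 5.26% and 6.52% in the oldest mice (3, 1 and 2). Its mean over mice was 6.26% ± 3.18 (SD, n = 11), and the ages overlapped. The next genes were Igkv1-117 with 22 cells in 9 mice (3.81% ± 3.32), Igkv12-44 with 21 cells in 10 mice (4.01% ± 2.95) and Igkv1-135 with 18 cells in 10 mice (3.06% ± 1.76). Below them the order rested on 1 or 2 cells: Igkv19-93 had 17 cells, Igkv17-127 16, Igkv6-20, Igkv3-2 and Igkv1-110 15 each, Igkv17-121, Igkv12-41 and Igkv6-15 14 each, and the 13th gene, Igkv14-111, 13. Each of these shares had an SD over mice close to or above its distance from the neighbours. The difference between neighbouring genes within mice was not tested.

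**Figure D1:**
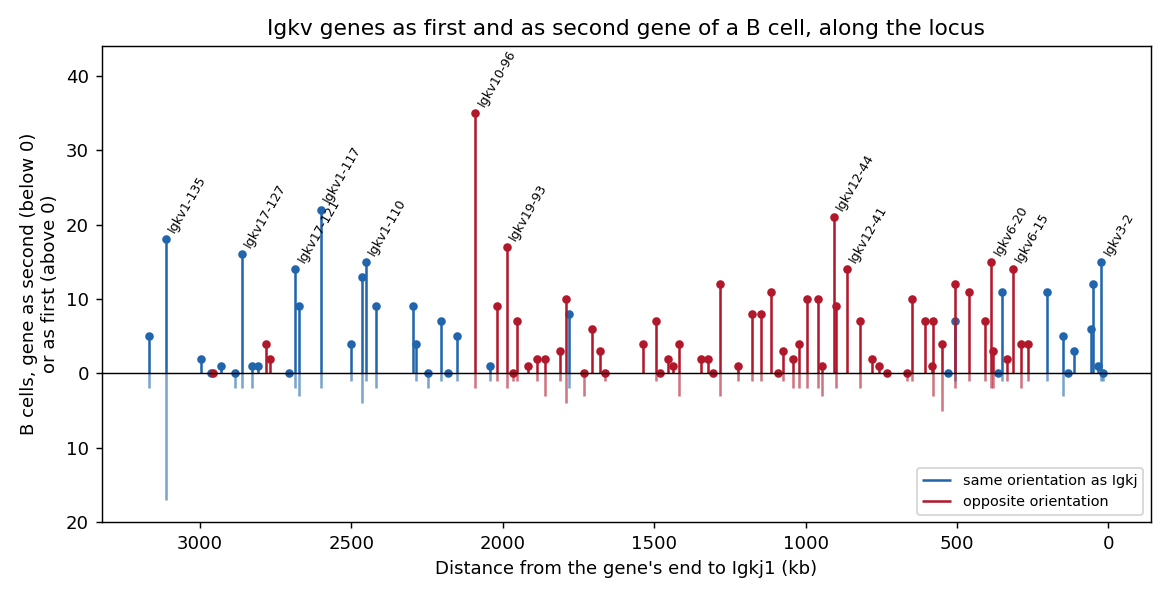
Number of B cells in which each Igkv gene was the first gene (above 0) or the second gene of a two-gene cell (below 0), plotted against the distance of the gene from Igkj1 in kb, with colours for orientation. Igkv10-96 stands highest as first gene with 35 cells, 2090 kb from Igkj1, and Igkv1-135 reaches farthest down as second gene with 17 cells.

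The leading gene differed between mice. Igkv10-96 led in mice 12 and 21 with 4 cells each, Igkv12-41 in mouse 24 with 3, Igkv6-15 in mouse 11 with 4, Igkv12-44 in mice 14 and 22 with 4 each, Igkv1-110 in mouse 15 with 5 and Igkv1-117 in mouse 23 with 6. The oldest mice had ties for the lead. Igkv10-96 and Igkv19-93 led in mouse 3 with 6 cells each, Igkv10-96, Igkv5-48, Igkv6-23 and Igkv3-2 led in mouse 1 with 4 each, and Igkv2-137, Igkv10-96, Igkv19-93 and Igkv6-20 led in mouse 2 with 3 each. No gene was first in more than 13.8% of the cells of a mouse.

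**Figure D2:**
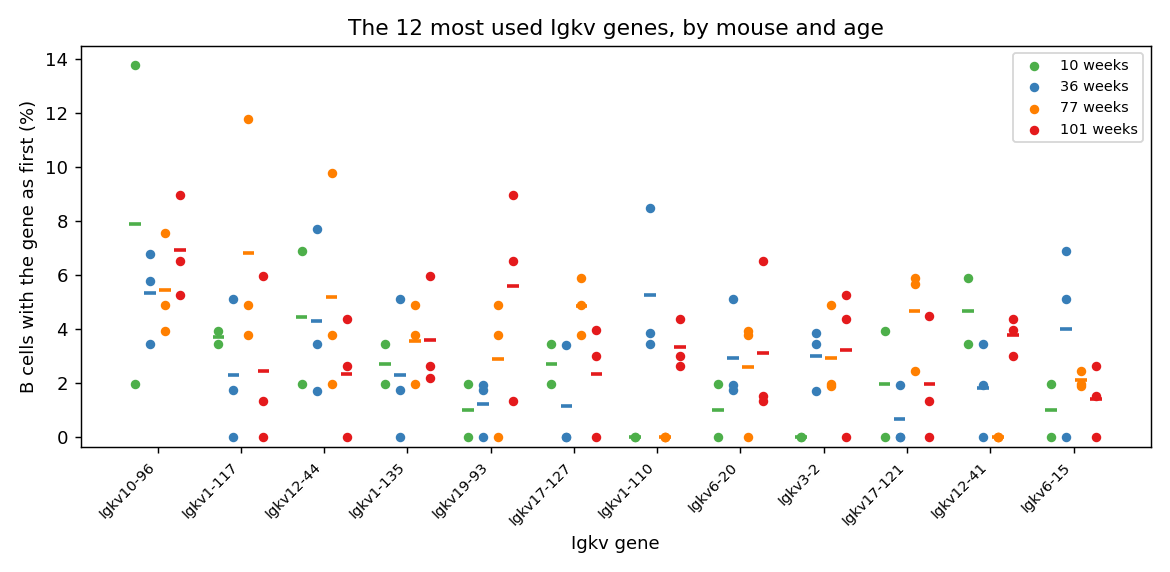
Share of B cells (%) of each mouse whose first gene was each of the 12 most used Igkv genes, 1 point a mouse coloured by age, with a bar for the mean of each age. Igkv10-96 has a value above 0 in all 11 mice, and the other genes each reach 0 in at least 1 mouse.

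By subgroup, the largest shares belonged to Igkv4 with 91 cells over 26 genes, Igkv6 with 77 cells over 9 genes, Igkv1 with 59 cells over 9 genes, Igkv12 with 54 cells over 6 genes, Igkv3 with 53 cells over 9 genes and Igkv10 with 45 cells over 3 genes. Per gene the order was different, with 17 cells for the single gene of Igkv19, 15 for each of Igkv10 and Igkv17, 8.56 for Igkv6 and 3.50 for Igkv4. Igkv7, Igkv18 and Igkv20, of 1 gene each, were never first, although Igkv20 was second in 2 cells and Igkv7 in 1.

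Orientation and position showed no strong gradient. Genes of the Igkj orientation were first in 235 cells (39.9% ± 7.53 of cells, SD over 11 mice) and held 38 of the 98 genes, and genes of the opposite orientation were first in 348 cells. Mean use was 6.18 cells per gene in the Igkj orientation and 5.80 in the other. By distance from Igkj1, use was 6.53 and 6.47 cells per gene within 0 to 500 and 500 to 1000 kb, 3.94 and 4.50 within 1000 to 1500 and 1500 to 2000 kb, 8.92 within 2000 to 2500 kb and 5.82 beyond.

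Several genes are near copies of each other, and their reads bear on any count of cells with more than one gene. Among the 98 genes, 76 pairs, all within a subgroup and involving 61 genes, share an identical stretch of at least 75 bases, the length of a read. Between subgroups the longest shared stretch was 58 bases. Cells were therefore called two-gene cells where a gene of another subgroup than the first had at least 10 counts and at least 10% of the Igkv counts of the cell. Cells in which only a gene of the same subgroup did so are called split cells, and the rest one-gene cells.

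Most of the 57 split cells (9.78% of 583) held near-identical genes. In 42 of them the 2 genes share a stretch of at least 75 bases. The last 90 bases of 3 such pairs are shown with capitals at the bases that differ between the members of a pair, as examples of the bases at which their reads can be told apart. The coding sequences hold further differences outside the stretch shown, with 10 in all for Igkv1-110 and Igkv1-117, 5 for Igkv6-20 and Igkv6-29 and 16 for Igkv10-94 and Igkv10-96.
Igkv1-110, chr6:68271178-68271267, plus strand: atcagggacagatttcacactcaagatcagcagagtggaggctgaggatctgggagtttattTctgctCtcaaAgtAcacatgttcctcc
Igkv1-117, chr6:68121738-68121827, plus strand: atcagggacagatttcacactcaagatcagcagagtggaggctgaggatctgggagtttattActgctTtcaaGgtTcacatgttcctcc
Igkv6-20, chr6:70335841-70335930, minus strand: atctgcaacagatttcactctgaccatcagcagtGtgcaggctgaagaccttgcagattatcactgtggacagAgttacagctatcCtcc
Igkv6-29, chr6:70138462-70138551, minus strand: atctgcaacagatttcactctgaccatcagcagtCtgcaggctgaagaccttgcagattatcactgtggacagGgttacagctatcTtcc
Igkv10-94, chr6:68704508-68704597, minus strand: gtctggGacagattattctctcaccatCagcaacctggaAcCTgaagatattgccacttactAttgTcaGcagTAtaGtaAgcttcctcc
Igkv10-96, chr6:68631963-68632052, minus strand: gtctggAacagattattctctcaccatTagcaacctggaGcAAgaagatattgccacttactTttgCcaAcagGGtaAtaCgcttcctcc

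Within each pair the size of the split differed between the directions, and its range over cells was narrow in some directions and wider in others. Igkv1-110 and Igkv1-117, which are 97.2% identical over the coding sequence, both had at least 10 counts in the same 45 cells. In all 15 cells with Igkv1-110 first, Igkv1-117 held 12.5 to 17.8% of the counts of the pair, while in the 22 cells with Igkv1-117 first, Igkv1-110 held 0.729 to 3.17%. Igkv6-29 held 30.1 to 45.5% in all 15 cells with Igkv6-20 first, and was itself first in 1 cell. In the 9 cells with Igkv10-94 first, Igkv10-96 held 20.03 to 27.2%, against 0.592 to 2.12% for Igkv10-94 in the 35 cells with Igkv10-96 first. Igkv13-84 and Igkv13-85 have no difference in their last 90 bases, and Igkv13-85 held 21.2 to 24.5% in the 8 cells with Igkv13-84 first, against 8.02 to 11.1% the other way in 10 cells. Igkv3-5 held 9.31 to 19.3% in the 5 cells with Igkv3-10 first, against 3.01 to 8.25% for Igkv3-10 in the 6 cells with Igkv3-5 first. How reads that fit several genes were counted is not given in the sources used here.

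**Figure D3:**
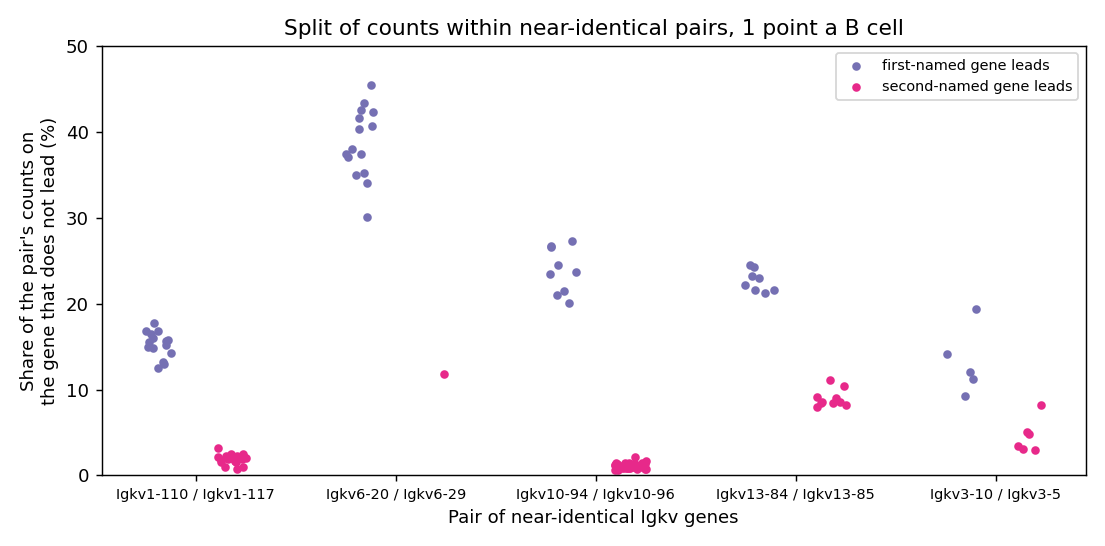
Share (%) of the summed counts of a near-identical pair held by the partner of the first gene, 1 point a cell, for both directions of 5 pairs; colours mark which member of the pair leads the cell. The bands differ in width. Igkv1-117 lies at 12.5 to 17.8% in cells led by Igkv1-110, and the reverse at 0.729 to 3.17%. Igkv6-29 in cells led by Igkv6-20 spreads over 30.1 to 45.5%.

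A second gene of another subgroup was found in 124 of the 583 cells (21.3%), beside 402 one-gene cells (69.0%). This number depended on the cutoff, with 157 cells at 5% of the Igkv counts and 75 cells at 20%. Allowing genes of one subgroup that share under 75 bases gave 139 cells at 10%. In the median cell the first gene held 96.4% of the Igkv counts, and in 70 cells it held all of them. In two-gene cells the second gene had 94 to 3661 counts with a median of 766, and 10.3 to 49.4% of the Igkv counts with a median of 26.1%. In 18 of these cells the second gene held over 40%. The pairs were highly varied: 61 genes were second somewhere, the 124 cells gave 121 distinct pairs, and 3 pairs occurred in 2 cells each (Igkv1-135 with Igkv4-72, Igkv1-135 with Igkv6-17, and Igkv10-96 with Igkv1-88). The members of a pair were 55.8 to 77.6% identical and shared at most 36 bases in a row. No second gene stood below 5.33% of the highest count of that gene in another cell of its plate, and in 36 cells no other cell of the plate had 10 counts of it.

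**Figure D4:**
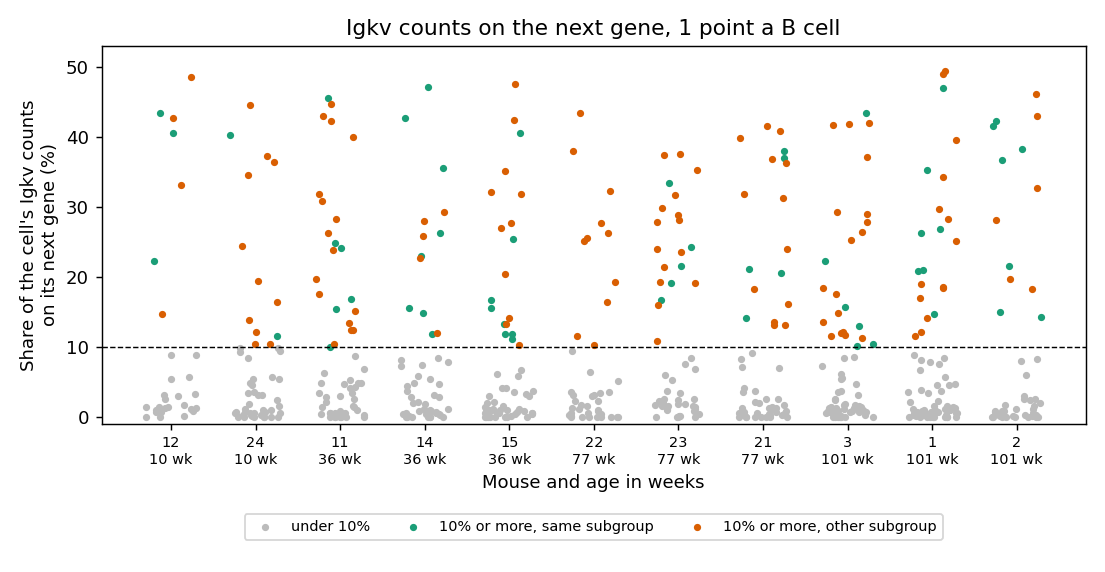
Share (%) of the Igkv counts of a cell held by the next gene, which is the highest gene after the first or, in two-gene cells, the highest gene of another subgroup, 1 point for each of 583 B cells set out by mouse and age, with colours for genes of another subgroup and of the same subgroup at 10% or more (dashed line). In 200 one-gene cells this share is below 1%, and two-gene cells spread between 10.3 and 49.4%.

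Igkv1-135, a gene at the far end of the locus, 3112 kb from Igkj1, was the most frequent second gene. It was second in 17 cells from 10 mice, next to 16 different first genes, and held 10.3 to 49.4% of the Igkv counts there (211 to 3208 counts). The next second gene was Igkv8-27 with 5 cells. Igkv1-135 was also first in 18 cells, so its use as second gene was almost as frequent as its use as first gene, whereas Igkv10-96 was first in 35 cells and second in 2. Both values describe these cells, and no test was made of the difference.

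The two-gene share ranged from 9.62 to 29.4% over mice, with a mean of 20.9% ± 6.73 (SD, n = 11). By the same rule 81 of 574 cells had 2 heavy chain variable genes, 13.9% ± 2.79 over mice, a share that is not compared further because the subgroups of the families differ in size. The sort gated single cells, and no doublet caller was run. Within mice, two-gene and one-gene cells were compared for 7 measures with exact sign-flip permutation tests over 11 mice, and none passed after adjustment. Two-gene cells had a mean of 362415 total counts against 334572 (exact p = 0.113, adjusted p = 0.342), 2073 detected genes against 2062 in 150000 drawn counts, and 2 heavy chain variable genes in 16.5% ± 13.4 of cells against 12.4% ± 4.38 (exact p = 0.413, adjusted p = 0.545). The Igkv counts, which define the classes and were not tested, summed to 10017 CPM in two-gene cells against 7308 CPM, higher in 10 of 11 mice. Igkc stood at 10141 CPM against 8824 CPM (exact p = 0.084, adjusted p = 0.342). The part of sorted doublets in the two-gene share was not tested beyond these measurements.

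Two-gene cells differed from one-gene cells in RNA from within the kappa locus itself. Gm30211 (ENSMUSG00000105646) is annotated as a long intergenic non-coding RNA at chr6:70719074-70740554 on the plus strand, the strand of Igkc. Its first exon, chr6:70719074-70719377, lies between the Igkv genes and the Igkj segments, 3184 bases upstream of Igkj1, and its other 3 exons lie beyond Igkc. At least 10 counts of it were present in 231 of 402 one-gene cells (57.5%, exact 95% interval 52.5 to 62.3%) and in 9 of 124 two-gene cells (7.26%, 3.37 to 13.3%). Gm30211 was singled out after its values were seen.

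The difference had the same direction in each of the 11 mice. The share of one-gene cells with Gm30211 was 77.3% and 60.5% in the mice aged 10 weeks, 55.6%, 69.2% and 55.0% at 36 weeks, 73.3%, 45.2% and 57.1% at 77 weeks, and 41.9%, 50.9% and 60.6% in the oldest group. In two-gene cells of the same mice, in the same order, it was 50% and 9.09%, 12.5%, 20% and 9.09%, 0, 6.67% and 0%, and 5.56%, 0 and 0%. The highest two-gene value, 50%, rested on 2 of 4 cells of mouse 12. The means were 10.3% ± 14.6 against 58.8% ± 11.1 (SD, n = 11). The difference within mice was -48.5 ± 12.6 percentage points (SD, n = 11). A limma fit used the arcsine square root of the share of cells with at least 10 counts. The mouse was a block and each mouse was weighted alike. Gm30211 was lower by 0.63 ± 0.065 (SE) on that scale (limma adjusted p = 6.53e-18 over 10970 genes). This SE rests on a spread shared across all genes, so the p does not measure the spread of Gm30211 over mice. The fit called 3 genes, 0.0273% of those tested, and was added after the data were seen.

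The fit on counts summed per mouse and class, made with the quasi-likelihood test of edgeR and a block for the mouse, did not call Gm30211, with a log2 difference of -4.92 ± 1.5 (adjusted p = 0.133). It called 329 of 13036 genes, 2.52%, all lower in two-gene cells. The 5 with the smallest p were Sppl3, Igip, 2700062C07Rik, Zfp408 and Mtg1. At least 1 count of each was present in 14 to 30 of the 402 one-gene cells and in 1 or 2 of the 124 two-gene cells. The sums held 402 one-gene cells against 124 two-gene cells, and with equal cell numbers in both classes edgeR called 0 of 10886 genes, 0.0%, with 382 of 10803 genes other than Igkv at an unadjusted p under 0.05. With equal cell numbers Gm30211 had a log2 difference of -5.34 ± 1.49 (adjusted p = 1). DESeq2 on the full sums called 3168 genes other than Igkv, Gm30211 among them (adjusted p = 4.5e-05), where 27.1% of all genes with an adjusted p were called.

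Other classes of cells gave a range of Gm30211 shares. In split cells whose genes share at least 75 bases it was 57.1% (24 of 42), and in split cells sharing fewer it was 26.7% (4 of 15). Among one-gene cells it was 62.0% where the next gene held under 1% of the Igkv counts, 53.4% at 1 to 5% and 51.9% at 5 to 10%. Among two-gene cells it was 10.2% where the second gene held 10 to 20%, 9.38% at 20 to 30% and 2.33% above. In the 17 cells with Igkv1-135 second it was 0 of 17, which allows a share of up to 19.5% (exact 95% interval). It was 2 of 17 in the cells with fewer than 10 Igkv counts. It was 3 of 39 in cells with more lambda variable than Igkv counts, and 2 of 329 in T cells (0.608%). Among one-gene cells Gm30211 reached 10 counts in 53.2% of those whose first gene lies in the Igkj orientation and in 60.2% of those with a first gene in the opposite orientation. No test was made between these classes.

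**Figure D5:**
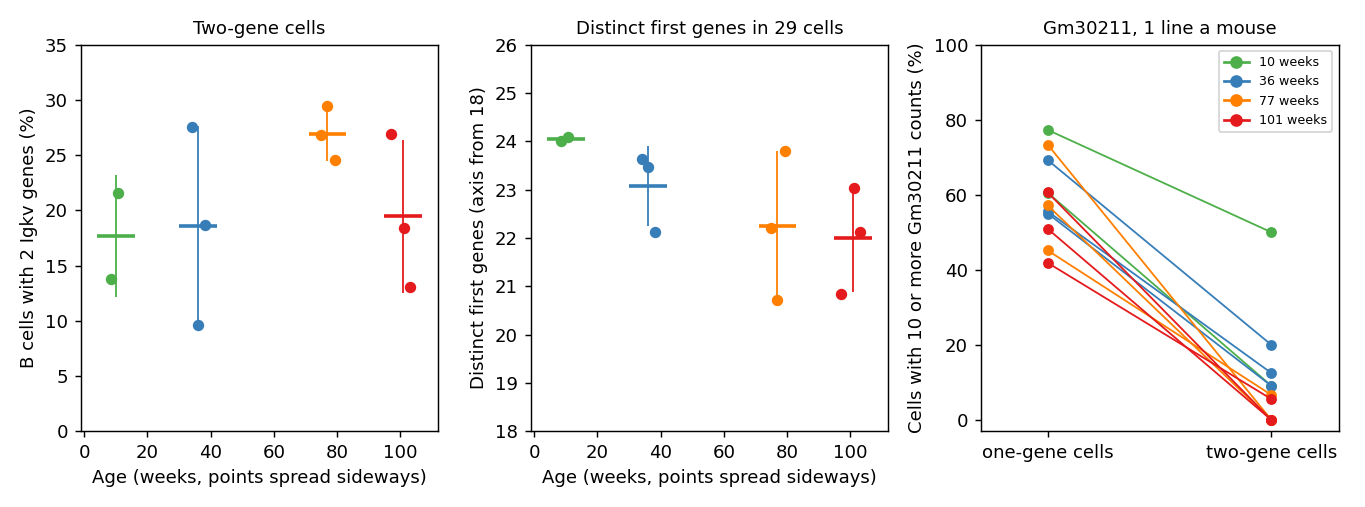
Left and middle, share of two-gene cells (%) and number of distinct first genes in 29 drawn B cells against age in weeks, 1 point a mouse, with horizontal lines for the mean and vertical lines for the SD of each age. Right, share of cells (%) with at least 10 Gm30211 counts in one-gene and two-gene cells, 1 line a mouse; every line falls, from 41.9 to 77.3% to between 0 and 50%.

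Of the 5 Igkj segments, Igkj1 passed the test. Igkj1, the segment nearest to the Igkv genes, had at least 10 counts in 70.4% ± 11.4 of one-gene cells and 44.8% ± 14 of two-gene cells, lower in 11 of 11 mice (limma adjusted p = 0.0836; edgeR log2 difference -1.08 ± 0.27, adjusted p = 0.0882). The edgeR call was lost with equal cell numbers (-0.78, adjusted p = 1), without the count filter (adjusted p = 0.301) and without any 1 mouse (adjusted p = 0.112 to 0.156). Igkj5, the farthest segment, was at 40.7% ± 5.76 against 56.5% ± 8.87, higher in 11 of 11 mice, but did not pass (limma adjusted p = 0.343). Igkj2 was at 43.8% against 47.1%, Igkj3 at 13.98% against 12.3% and Igkj4 at 28.8% against 31.8%. Igkj1 and Gm30211 were tied: in one-gene cells 213 of the 231 cells with Gm30211 also had Igkj1, and in two-gene cells all 9 did, while 42 two-gene cells had Igkj1 without Gm30211. The third gene called was Actr1a, a dynactin subunit, which was lower in two-gene cells (limma adjusted p = 0.0776).

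Gene lists chosen for B cell subsets and for recombination gave little else. Of the genes listed for recombination, Rag1, Rag2 and Dntt reached 10 counts in none of these cells, which does not exclude lower counts. Of the 7 recombination and editing genes tested in edgeR, only Dclre1c, the nuclease Artemis, passed (log2 difference -7.55, adjusted p = 0.0778), and it did not with equal cell numbers (adjusted p = 1) or in the limma fit (adjusted p = 0.330). Of the 14 kappa and lambda genes tested, only Igkj1 passed, and none did with equal cell numbers. None passed among 3 transitional, 4 follicular, 4 B1, 3 age-associated and 4 plasma cell genes, 10 receptor partners, 5 heavy chain constant genes, 4 haemoglobin genes, 1 T cell gene and 1 gene of the NK cell and monocyte list. The limma estimates of the haemoglobin genes Hba-a1 and Hba-a2 were higher in two-gene cells without passing (adjusted p = 0.157 and 0.180), and their part in the two-gene class was not tested.

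Lambda RNA accompanied kappa RNA in most cells. Iglc2 and Iglc3 had at least 10 counts in 579 and 578 of 600 B cells and in 0 T cells, whereas lambda variable genes had 10 counts in 246 of the 583 Igkv cells. Lambda constant counts exceeded Igkc counts in 107 B cells, 90 of which had at least 10 Igkv counts. Lambda variable counts exceeded Igkv counts in 39 B cells, 22 of which had at least 10 Igkv counts. Calls of lambda use thus differed by rule.

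Age was tested in 4 ways across all genes, as a slope over the 4 ages and as the oldest group against all younger mice, each on counts summed per mouse (edgeR) and on the share of B cells with at least 10 counts (limma). None of the 84 Igkv genes tested on sums or the 80 tested on shares passed in any of them, at an adjusted p of 0.1. The background of genes called was 0.0148% for the slope and 0.156% for the oldest group on sums, and 1.21% and 5.83% on shares. At an unadjusted p under 0.05 there were 4 Igkv genes in each fit on sums, 2 for the slope on shares and 4 for the oldest group on shares, against 5.06%, 4.24%, 10.3% and 17.0% of all genes. The median Igkv log2 difference on sums in the oldest group was 0.046, beside -0.027 over all genes. On shares the medians on the arcsine scale were -0.0017 for Igkv genes and 0.051 over all genes. DESeq2 called 3 Igkv genes as higher with age (Igkv3-7, Igkv1-88, Igkv12-38) and 3 as lower in the oldest group (Igkv12-98, Igkv4-68, Igkv4-72), and its background of genes called was 1.03% and 1.34%. The number of genes detected in 150000 drawn counts per cell moved with age as well, with means of 2306 to 2390 in the 3 oldest mice and 1777 to 2120 in the 8 younger mice. With this number as a covariate the fits on shares called 10 and 11 of 11282 genes in place of 136 and 658, none of them Igkv, and without 1 mouse they called 15 (mouse 1) to 322 (mouse 23) for the slope and 214 (mouse 2) to 830 (mouse 22) for the oldest group.

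The genes with the smallest p rested on few cells. Igkv3-7, which had the smallest p of the Igkv genes with higher shares, had at least 10 counts in 3, 3 and 1 cells of mice 3, 1 and 2 in the oldest group, and in 4 cells of 3 of the 8 younger mice (3.43% ± 1.19 against 0.924% ± 1.43, limma adjusted p = 0.255). Its counts were low in most, and the sum per mouse exceeded 4 CPM only in mice 1 and 21, at 164 and 192 CPM. Igkv12-98 had 0 counts in the 3 oldest mice, and also in 3 of the 8 younger mice, with 108 to 328 CPM in the other 5 mice from 6 cells in all. Igkv4-72 had 0.12 to 1.12 CPM in the oldest group and 0.46 to 225 CPM in younger mice, so the groups overlapped (edgeR adjusted p = 0.818). The other genes of smallest p were Igkv1-88, Igkv12-38, Igkv10-95, Igkv4-86, Igkv4-74, Igkv2-137, Igkv3-3, Igkv6-17 and Igkv5-45 among those with higher values with age, and Igkv6-14, Igkv4-78 and Igkv8-24 among those with lower values, with adjusted p from edgeR or limma between 0.321 and 1.00.

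Igkv4-68 came nearest to the threshold. It had at least 10 counts in 4.35%, 3.85% and 0% of B cells in the oldest group, and in 4.55 to 11.5% of cells in the 8 younger mice (2.73% ± 2.38 against 8.02% ± 2.09, limma adjusted p = 0.122). The groups nearly met, since 4.35% was 3 cells of mouse 3 and 4.55% was 2 cells of mouse 22. It passed when mouse 12 or mouse 22 was left out (limma adjusted p = 0.0858 and 0.0795), where 749 and 830 of all 11282 genes were called. The difference on the arcsine scale, -0.15, shrank to -0.081 without mouse 2 (adjusted p = 0.648), to -0.040 at 1 count per cell (adjusted p = 0.749) and to -0.038 with the number of detected genes as a covariate (adjusted p = 0.987). It was first in 4 of the 39 cells with 10 counts, and 35 of the 39 also had 10 counts of Igkv4-59, with which it shares a long identical stretch. Igkv4-59 stood at 3.43% ± 1.19 against 8.57% ± 3.19 (adjusted p = 0.288) and Igkv4-54, never first, at 0.910% ± 0.793 against 4.83% ± 2.47 (adjusted p = 0.211). Of the 22 cells with Igkv4-54, 21 also had Igkv4-59, so these values are not independent.

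Igkv19-93 was first in 0.980% ± 1.39 of cells at 10 weeks, 1.22% ± 1.06 at 36 weeks, 2.88% ± 2.56 at 77 weeks and 5.60% ± 3.9 in the oldest group. The single values in that group were 8.96%, 1.32% and 6.52%, which overlap with the 4.88% and 3.77% of 2 mice at 77 weeks, and it was not called in any fit. The other most used genes showed no order with age: Igkv1-110 was at 0% in all 5 mice of 10 and 77 weeks and at 2.63 to 8.47% in all 6 mice of 36 weeks and the oldest group, and Igkv12-41 was at 0% in all mice of 77 weeks and above 0 in every mouse of 10 weeks and of the oldest group.

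The share of two-gene cells did not follow age detectably in 11 mice. It was 13.8% and 21.6% at 10 weeks, 27.6%, 9.62% and 18.6% at 36 weeks, 26.8%, 29.4% and 24.5% at 77 weeks, and 26.9%, 18.4% and 13.0% in the oldest group. Against age in weeks, Pearson's r came to 0.25, with a permutation p of 0.440 before and after adjustment over 3 measures, and Spearman's rho to 0.060, with a permutation p of 0.864 before and after it. Leaving out both mice of 10 weeks, whose ages are farthest from the median, gave r = 0.13. The mean was 19.4% ± 6.97 in the oldest group against 21.5% ± 7.03 in the 8 younger mice, a difference of -2.05 percentage points (two-sided exact permutation p = 0.661, where 0.00606 is the smallest possible). In lane 2 cells alone, from 7 mice, the difference was 1.65 percentage points, of the opposite sign. There mouse 14 entered with 2 two-gene cells of 38 (5.26%), the lowest share among the younger mice, beside 3 of 14 in lane 1. How far the sign rests on this part of 1 mouse was not tested.

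The number of distinct first genes had its lowest mean in the oldest group, but its relation to age did not pass after adjustment. In 29 cells drawn from each mouse it averaged 24.04 at 10 weeks, 23.1 at 36 weeks, 22.2 at 77 weeks and 21.997 in the oldest group. Pearson's r came to -0.62, with a permutation p of 0.0436 that rose to 0.131 when adjusted, and Spearman's rho to -0.53, with a permutation p of 0.0946 that rose to 0.284. Leaving out both mice of 10 weeks gave r = -0.41 (permutation p = 0.268), so the unadjusted p under 0.05 rests on those mice, while leaving out any 1 mouse gave r of -0.71 to -0.54. Among the 6 mice sequenced in lane 2 only, r was -0.69 (exact p = 0.103). The oldest group had a mean difference of -1.01 genes from the younger mice (exact p = 0.230). Pairs of cells in 1 mouse with the same first Igkv and first heavy chain variable gene were rare, 6 pairs among 557 cells with both, 1 of them in the oldest group.

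The share of B cells with more lambda constant than Igkc counts was 12.5 to 14.1% in the 3 oldest mice and 13.8 to 25.9% in the 8 younger mice. The difference was -6.44 percentage points (13.2% ± 0.815 against 19.7% ± 4.4, two-sided exact p = 0.0364), and it did not pass after adjustment over 3 measures (adjusted p = 0.109). Over all 11 mice r with age in weeks came to -0.30, with a permutation p of 0.358 and 0.440 when adjusted. Spearman's rho came to -0.42, with a permutation p of 0.198 and 0.298 when adjusted. Leaving out both mice of 10 weeks gave r = -0.70 (permutation p = 0.0455). Within lane 2 the difference was -5.65 percentage points (exact p = 0.2). Counted by variable genes, lambda above Igkv, the shares were 0.474 percentage points above the younger mice in the oldest group (exact p = 0.642), so the direction depended on the rule.

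Within one-gene cells the Gm30211 share averaged 68.9% ± 11.8 at 10 weeks, 59.9% ± 8.06 at 36 weeks, 58.5% ± 14.1 at 77 weeks and 51.1% ± 9.37 in the oldest group, with overlapping mice and no test.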

How the data were processed

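Single-cell RNA was measured by scM&T-seq in blood cells. The deposited values are raw read counts per gene and cell that the authors made with Trim Galore 0.6.7, STAR in two-pass mode on GRCm38 and featureCounts on Ensembl release 96; reads carried no molecular identifiers, so counts are not independent molecules, and strand and multi-mapping settings are not given in the sources used here. Mouse, age and cell type came from the study's sheet of cells, lane from the deposited names of raw read files. Replicates are mice. Gene spans and sequences are from the matching annotation of that build.

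Counts were summed per mouse and tested with edgeR 4.0.16 (genes with at least 10 counts in at least 3 mice). Shares of cells with at least 10 counts (genes with 10 counts in at least 5 B cells) were tested with limma 3.58.1 on the arcsine square root scale. The spread in the limma fits was shared across genes, so their p-values do not measure the spread of a single gene over mice. P-values were adjusted (Benjamini-Hochberg) over all genes tested, with a threshold of 0.1. Measures per mouse were tested by exact permutation or 100000 resamples, two-sided, with a threshold of 0.05. Confidence intervals are exact binomial (95%). DESeq2 1.42.0 was an alternative. The tests were checked on simulated data, with 1 fixed spread for sums and, for shares, changes placed only in widely detected genes. Igkv genes were found in few cells each, so this check does not cover them.

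Members, lists and rules were chosen with earlier results of these data known. Named genes are the 12 most used, those of smallest p in each test and each mouse's leading gene. The pairs seen most often and the light chain genes of the lists are named as well. Other genes, among them Gm30211, Cd93 and Jchain, were named after their values were seen.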

Additional observations from a re-analysis of the deposited data

Results flagged for a closer look

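In 3 of the 17 measures checked within the 8 younger mice, 1 mouse passed an outlier rule, the gap to the next mouse over the range. The gaps were 0.528, 0.568 and 0.546 in the order below, just above the cutoff of 0.526. That cutoff is made for normally spread values and not for shares of few cells, so its chance rate does not apply here. Igkv10-96 was first in 13.8% of the B cells of mouse 12, a plate of 29 B cells. Igkv1-117 was first in 11.8% of the B cells of mouse 23, and Igkv1-110 in 8.47% of those of mouse 15. Each of these values rests on 4 to 6 cells.

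Igkv pseudogenes, which entered no comparison, also gave counts. In 9 B cells a pseudogene had at least 10 counts and at least 10% of the Igkv counts. At least 10 counts of any of 19 pseudogenes were present in 84 B cells and in 0 T cells, most often of Igkv4-56 (25 B cells). Pseudogenes together held 0.532% of the counts of Igkv genes and pseudogenes.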

How the results depend on the processing

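Igkv genes called with age numbered 0 in the 4 fits. DESeq2 called 3 for the slope and 3 for the oldest group on sums, beside 1.03% and 1.34% of all genes. The cells that the study's sheet puts in haemoglobin class 0 gave 1 for the oldest group on sums, beside 52 of all 12120 genes. Leaving out a mouse gave 0 to 1 for the oldest group on shares and 0 in the others. The 1 call, Igkv4-68, came without mouse 12 or 22, where 749 and 830 of all 11282 genes were called. Single genes changed sign in Igkv4-68 on sums with detected genes as a covariate (1.83, main -3.81), Igkv10-95 without mouse 2 (-2.17; range over mice -2.17 to 2.85) and Igkv4-74 without mouse 3 (-0.47; -0.47 to 2.63).

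Genes other than Igkv called between two-gene and one-gene cells numbered 329 of 12944. DESeq2 called 3168, where 27.1% of all genes with an adjusted p were called. Without the count filter 7 of 33056 were called. With a second gene at 20% it was 4462 of 13090, of which 4461 were lower. Leaving out 1 mouse gave 121 of 12709 (mouse 14) to 281 of 12777 (mouse 23). Added after the data were seen, equal cell numbers gave 0, genes in 25% of cells 0, both together 0 and shares of cells 3. The mouse is the block in all of these.

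The difference in two-gene share of the oldest group changed sign in haemoglobin class 0 cells (1.88 percentage points), in lane 2 (1.65) and without mouse 2 (range over mice -5.76 to 1.15), and r with age ranged over 0.11 to 0.47 without 1 mouse and from 0.062 (genes of one subgroup allowed, added later) to 0.53 (haemoglobin class 0 cells) under the other settings. The lambda difference was under 0.05 in the main setting only before adjustment (exact p = 0.0364, adjusted p = 0.109). Without adjustment it was not under 0.05 in haemoglobin class 0 cells (-4.39) or lane 2 (-5.65). Without 1 mouse it ranged over -7.28 to -5.55 (unadjusted exact p 0.025 to 0.089, at or above 0.05 without mouse 2, 3, 11, 14, 15 or 23). It changed sign with lambda counted whatever the Igkc count (0.231), a sign that rests on 1 cell since 599 of 600 were positive. Counted by variable genes, added later, it changed sign as well (0.474, with r 0.28). Its r without 1 mouse was -0.52 to -0.19. Cause was not tested.

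Between ages, no paired analysis was possible because each mouse has 1 age. Drawing 150000 counts per cell left 124 two-gene cells. The median Igkv gene was first in 4 cells, and the change that such numbers can resolve was not tested.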

Other observations

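The B cell with the highest Igkv level, from mouse 1 of the oldest group, had 42479 counts of its first gene, Igkv2-109, which were 9.44% of its total counts. It also had 60089 counts of Jchain, which links antibody units, and 48537 of Igkc. Only 2 B cells had at least 10 Jchain counts. Of the other 88 cells of its plate, 4 had at least 10 Igkv2-109 counts, and the highest of them, 3458 counts, was a B cell that had Igkv2-109 as its first gene, while the median was 0.

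Cd93, a marker of young B cells newly come from the marrow, had a log2 difference of 5.32 ± 1.48 between two-gene and one-gene cells with equal cell numbers, without passing (edgeR adjusted p = 1). It was 1 of 3 transitional genes tested, whose median was 1.80 there and 0.767 on the full sums. In the limma fit of shares Cd93 was at 0.107 ± 0.058 (SE), Cd24a at 0.041 and Sox4 at 0.025, and none passed.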
